A study of Mus musculus with 12 samples.

Results

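The genes examined here are 30 genes of cholesterol and fatty acid synthesis, chosen by name from the pathway and found by their symbols among the 48709 rows of the deposited count table. They fall into 7 genes of the mevalonate pathway (*Acat2*, *Hmgcs1*, *Mvk*, *Pmvk*, *Mvd*, *Idi1* and *Fdps*), 11 genes of the squalene and sterol steps (*Fdft1*, *Sqle*, *Lss*, *Cyp51*, *Tm7sf2*, *Msmo1*, *Nsdhl*, *Hsd17b7*, *Ebp*, *Sc5d* and *Dhcr7*), 6 genes of the SREBP system and sterol transport (*Srebf1*, *Srebf2*, *Scap*, *Insig1*, *Insig2* and *Stard4*) and 6 genes of fatty acid synthesis (*Acly*, *Acaca*, *Fasn*, *Elovl6*, *Scd1* and *Scd2*). They were measured by RNA-seq in *i*NKT cells sorted from the thymus of 7-week-old mice of the C57BL/6J strain, in 12 libraries, 3 in each of 4 groups. The groups were NK1.1- cells and NK1.1+ cells of WT mice, and NK1.1- cells and NK1.1+ cells of miR-155KI mice. The miR-155KI mice had a miR-155 cassette in both copies of the Rosa26 locus together with CD4Cre, a Cre recombinase driven by the *Cd4* promoter that acts in the whole T cell lineage from the thymus onwards. The WT mice were littermates that carried the miR-155KI allele but no CD4Cre. CD8+ thymocytes were removed with beads, and *i*NKT cells were sorted by staining for TCRβ and with CD1d tetramers, and divided by CD44 and NK1.1. The study asked what an excess of miR-155 does to *i*NKT development, and the comparisons here ask whether lipid synthesis genes differed between the genotypes and between the pools.

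Cells build cholesterol from acetyl-CoA, which the mevalonate pathway turns into farnesyl diphosphate and the squalene and sterol steps turn into cholesterol. Fatty acid synthesis starts from the same acetyl-CoA, made by ATP citrate lyase (*Acly*), and passes through acetyl-CoA carboxylase (*Acaca*), fatty acid synthase (*Fasn*), the elongase *Elovl6* and the stearoyl-CoA desaturases *Scd1* and *Scd2*. The transcription factors SREBP-1 (*Srebf1*) and SREBP-2 (*Srebf2*) switch on both branches when sterols are scarce. SCAP escorts them out of the endoplasmic reticulum, and INSIG1 and INSIG2 hold SCAP back when sterols are plentiful. *Insig1* is itself an SREBP target and is widely read as a sign of SREBP activity. T cells raise this program when they grow and divide. NK1.1- *i*NKT cells of the thymus include immature, *i*NKT2 and *i*NKT17 cells, and NK1.1+ cells are mostly mature *i*NKT1 cells.

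Libraries held 12819476 to 20518257 counts, with a median of 18066120. Levels are CPM, which are counts scaled to a common library size after TMM normalization over the 12 libraries, and errors are the SD of the 3 libraries of a group. *Mir155hg*, the host transcript of miR-155, was higher in miR-155KI cells of both pools, by 3.49 on the log2 scale in NK1.1- cells (adjusted p = 8.28e-08) and by 3.26 in NK1.1+ cells (adjusted p = 3.31e-05). The T cell and *i*NKT identity genes summed to between 6510 and 8680 CPM in every library. Libraries stood apart in other markers. *Xist*, made from the inactive X chromosome of females, was 135 to 237 CPM in replicates 2 and 3 of both WT pools and 8.19 to 35.0 CPM in WT replicate 1 of both pools and in all miR-155KI libraries, where the 4 Y-linked genes summed to 154 to 252 CPM. The 17 macrophage and dendritic cell markers summed to 621 to 1500 CPM in miR-155KI NK1.1+ libraries and 160 to 408 CPM in the others, and the 12 double-positive thymocyte markers summed to 618 CPM in miR-155KI NK1.1+ replicate 1 against 196 and 246 CPM in replicates 2 and 3. Thus the genotypes differ in sex-linked RNA in 2 of 3 WT libraries of each pool, and within the libraries low in *Xist* the comparison rests on 1 WT library. That library, WT replicate 1, also differed in other markers in the NK1.1- pool. Its macrophage and dendritic cell markers summed to 318 CPM, against 160 and 161 CPM in WT replicates 2 and 3. Its 14 B cell markers summed to 424 CPM, against 223 and 229 CPM. The part of these cells in its lipid gene values was not tested.

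Most of the 30 genes were expressed in all 4 groups, and their levels spanned a wide range. Exon length here is the union of the exons of all annotated transcripts of a gene. It can exceed the length of the transcript made, so the order of the genes is approximate. Per kilobase of exon, the highest mean over the 12 libraries was that of *Acly*, at 64.8 CPM per kb, followed by *Srebf1* at 45.9, *Scd2* at 34.6 and *Ebp*, a sterol isomerase, at 27.5. *Srebf2* was at 16.3 and *Mvd*, the mevalonate diphosphate decarboxylase, at 15.7 CPM per kb. The lowest were *Scd1* at 0.0963, *Sqle*, the squalene epoxidase that catalyzes a rate-limiting step of sterol synthesis, at 0.624, *Hsd17b7* at 0.946 and *Acaca* at 1.08 CPM per kb. Of the stearoyl-CoA desaturases among the members, which introduce the double bond of monounsaturated fatty acids, *Scd2* lay far above *Scd1* per kilobase in every group. *Scd1* had 1 to 27 counts in each library and was between 0.0535 and 1.35 CPM in all of them, too few for a fold change between groups. The ranges of *Acly*, *Srebf1* and *Scd2* lay above those of the genes from *Dhcr7* downwards in every library. Over the 12 libraries, the SD of log2(CPM + 1) had a median of 0.316 among the members and 0.367 among the 14401 genes tested in all libraries. The widest was that of *Sqle*, at 0.862, then *Insig1* at 0.647 and *Scd2* at 0.603, while *Srebf1* varied least, with an SD of 0.162.

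**Figure D1:**
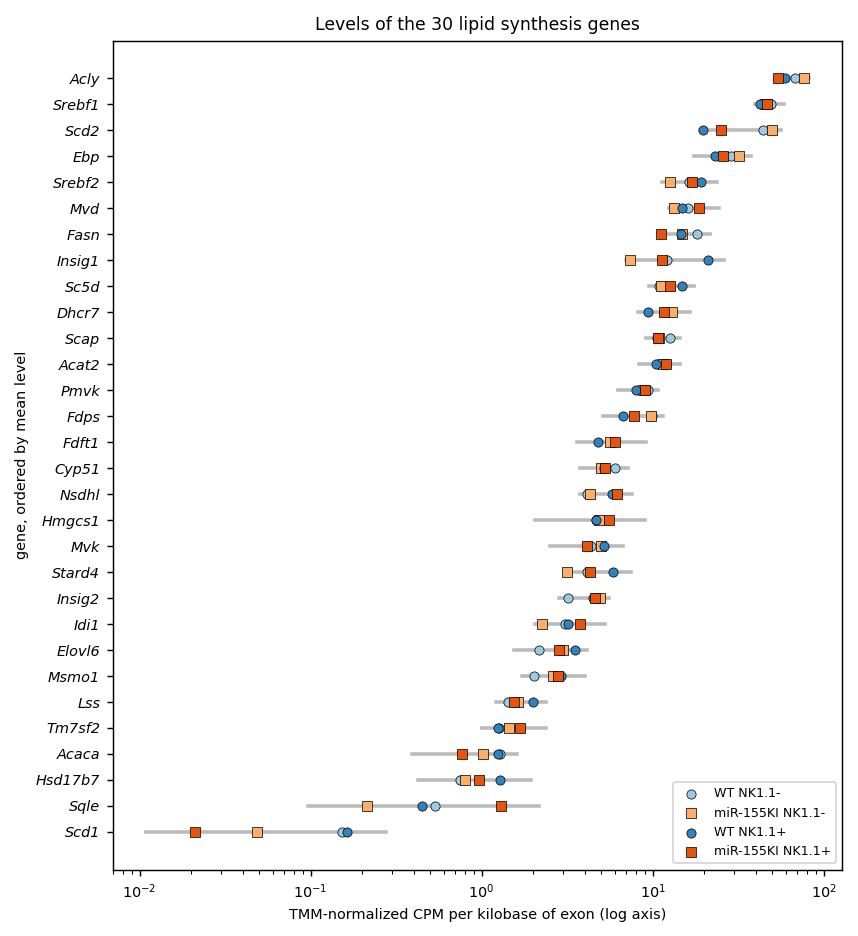
Each row is 1 gene and the horizontal log axis is TMM-normalized CPM per kilobase of exon. Points are group means (circles WT, squares miR-155KI, pale NK1.1-, dark NK1.1+) and grey bars run from the lowest to the highest of the 12 libraries. *Acly* has the highest mean (64.8 CPM per kb) and *Scd1* the lowest (0.0963 CPM per kb), and the points of *Scd2*, *Insig1* and *Sqle* lie far apart.

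A microRNA represses transcripts that pair with its seed, bases 2 to 8, so the 3′ UTRs of the members were searched for it. The mature miR-155-5p is given from RefSeq (GRCm38.p6, chr16:84714143-84714165, plus strand), with the seed in capitals.
miR-155-5p: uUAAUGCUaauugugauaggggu
The 8-base match AGCATTAA was in the 3′ UTR of 0 of the 30 members and of 3.39% of the 21193 annotated genes with a 3′ UTR.

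SREBP acts with the factor NF-Y, which binds the CCAAT box, and the promoters were read for both motifs from RefSeq (GRCm38.p6, 250 bases before to 50 bases after the start). Of the 30 members, 24 had a promoter in the table, and *Fdps*, *Fdft1*, *Sqle*, *Stard4*, *Scd1* and *Scd2* had no entry. CCAAT on either strand was in 20 of the 24 members (83.33%) and in 41.06% of 27025 genes. The SREBP motif TCACNCCAC, on either strand, was in 1 of the 24 members, *Hmgcs1*, the cytosolic HMG-CoA synthase (4.17%, against 1.44% of genes), 39 bases from the nearest CCAAT box and not overlapping it. These windows show the motif in *Hmgcs1* (plus strand, chr13:119690204-119690232) and 1 CCAAT box each (or its complement ATTGG) of 3 members that the results turn on, *Insig1* (plus strand, chr5:28071184-28071212), *Fasn* (minus strand, chr11:120824621-120824649) and *Acly* (minus strand, chr11:100527951-100527975), with the motif in capitals.
Hmgcs1: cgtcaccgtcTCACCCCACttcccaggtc
Insig1: cgccctcctcccATTGGctccggcggcct
Fasn: ccgcgcgccgccATTGGgccaccgagaac
Acly: gaacgcgtgtgcCCAATcgccgggc
The boxes shown for *Insig1* and *Fasn* lie 216 and 90 bases before the start, and that of *Acly* lies after it, within the transcript. A match describes the letters of a window, and binding was not measured.

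In NK1.1- cells, 0 of the 29 members tested passed an adjusted p of 0.05 between miR-155KI and WT by edgeR's quasi-likelihood test, and 0 by DESeq2, where 3.44% of the 13304 genes tested passed in either direction. At an unadjusted p of 0.05, 1 lay above WT and 4 lay below, where 2457 of all 13304 genes tested passed in either direction. The median log2 fold change of the members was 0.02, beside -0.00102 over all genes, with 15 members higher and 14 lower in level. The groups did not overlap for 7 of the 29 members, a share near the 23.1% of all genes tested. By group, the mevalonate genes had a median of -0.05, the squalene and sterol genes 0.07, the SREBP system and transport genes -0.31 and the 5 fatty acid genes tested 0.15. The makeup of the pool moved with genotype: the 12 *i*NKT2 markers summed to 4170 to 4510 CPM in WT and 6150 to 6400 CPM in miR-155KI NK1.1- libraries (6 of 12 higher by the same test), the 15 *i*NKT1 markers to 1720 to 2090 and 994 to 1240 CPM (10 of 15 lower), and the 13 *i*NKT17 markers to 326 to 407 and 208 to 283 CPM (9 of 13 lower). The part of this shift in the members' values was not tested.

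The 5 of 29 members with an unadjusted p under 0.05 are no larger a share than the 2457 of 13304 genes. They are described here by their values, and include 3 of the regulators. *Srebf2* was 106, 125 and 121 CPM in WT and 98.1, 81.7 and 94.4 CPM in miR-155KI NK1.1- cells, so that every miR-155KI library lay below the WT libraries (log2 fold change -0.38, 95% interval -0.64 to -0.12, adjusted p = 0.108). *Insig2* lay higher, with 10.7, 9.90 and 12.6 CPM in WT and 17.8, 18.1 and 15.1 CPM in miR-155KI cells (log2 fold change 0.60, 95% interval 0.19 to 1.02, adjusted p = 0.111). *Insig1* was 21.7, 54.7 and 35.5 CPM in WT and 21.9, 23.5 and 23.4 CPM in miR-155KI NK1.1- cells (log2 fold change -0.73, 95% interval -1.40 to -0.06, adjusted p = 0.237). The miR-155KI libraries of *Insig1* were close together, WT replicates 2 and 3 lay above them and WT replicate 1 was level with them. *Insig1* and *Insig2*, which act on the same step, stood on opposite sides of 0 in this comparison, and neither passed the threshold over all genes.

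The other 2 of the 5 were enzymes. *Fasn*, which assembles palmitate, was 181, 184 and 237 CPM in WT and 176, 145 and 165 CPM in miR-155KI NK1.1- cells, without overlap (log2 fold change -0.33, 95% interval -0.60 to -0.05, adjusted p = 0.186). *Sqle* was 2.65, 3.78 and 2.51 CPM in WT and 2.11, 0.903 and 0.535 CPM in miR-155KI NK1.1- cells (log2 fold change -1.33, 95% interval -2.45 to -0.21, adjusted p = 0.189), from 10 to 66 counts in a library. *Srebf1* was 263, 239 and 330 CPM in WT and 281, 223 and 263 CPM in miR-155KI NK1.1- cells, and its interval ran from -0.41 to 0.15 around -0.13 (adjusted p = 0.637). *Hmgcs1*, at the entry to the mevalonate pathway, was 18.4, 26.2 and 19.5 CPM in WT and 21.4, 19.2 and 26.3 CPM in miR-155KI NK1.1- cells (log2 fold change 0.04, 95% interval -0.37 to 0.45, adjusted p = 0.949). The groups overlapped for *Srebf1* and *Hmgcs1*. For *Acly* the log2 fold change was 0.17 (95% interval -0.05 to 0.40, adjusted p = 0.420) and for *Scd2* 0.15 (-0.09 to 0.39, adjusted p = 0.520), so that neither interval reached beyond 0.40 on the log2 scale. The 3 other members without overlap were *Mvd* (-0.30), *Msmo1*, a sterol methyl oxidase (0.34), and *Ebp* (0.14).

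In NK1.1+ cells, 0 of 29 members passed the same test and 0 passed by DESeq2, where 0.0231% of 12991 genes passed (3 genes, with 1539 at an unadjusted p under 0.05). Here 2 members had an unadjusted p under 0.05, both lower in miR-155KI cells, and no member had groups that did not overlap, against 16.8% of all genes. The median log2 fold change was 0.04, beside 0.02 over all genes. *Insig1* was 37.9, 81.2 and 78.0 CPM in WT and 34.7, 31.5 and 38.5 CPM in miR-155KI NK1.1+ cells (log2 fold change -0.93, 95% interval -1.53 to -0.33, adjusted p = 0.271), with WT replicate 1 again among the miR-155KI values. *Fasn* was 120, 177 and 181 CPM in WT and 123, 122 and 123 CPM in miR-155KI NK1.1+ cells (log2 fold change -0.40, adjusted p = 0.407), and WT replicate 1 was the lowest of the 6 libraries. *Scd2* was 106, 108 and 107 CPM in WT and 145, 163 and 103 CPM in miR-155KI NK1.1+ cells (log2 fold change 0.34, 95% interval -0.05 to 0.73, adjusted p = 0.478). *Srebf1*, at 226, 232 and 258 CPM in WT and 265, 284 and 238 CPM in miR-155KI NK1.1+ cells, and *Srebf2*, at 112, 138 and 160 CPM in WT and 171, 102 and 95.1 CPM in miR-155KI NK1.1+ cells, overlapped between the genotypes. *Hmgcs1* was 20.2, 24.2 and 19.7 CPM in WT NK1.1+ cells and spread from 9.42 through 25.6 to 41.4 CPM in miR-155KI NK1.1+ cells. *Acaca*, which makes malonyl-CoA, was 21.4 ± 3.35 and 13.1 ± 9.42 CPM (log2 fold change -0.72, adjusted p = 0.565). The miR-155KI NK1.1+ libraries were the ones with more macrophage and dendritic cell RNA, and its part in these values was not tested.

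*Insig1* and *Stard4*, a sterol transporter and SREBP target, followed the same libraries. *Stard4* was 17.3, 30.9 and 21.0 CPM in WT and 17.4, 17.1 and 18.6 CPM in miR-155KI NK1.1- cells, and 22.3, 42.0 and 34.5 CPM in WT and 21.4, 19.1 and 32.0 CPM in miR-155KI NK1.1+ cells. In both pools WT replicates 2 and 3, the libraries high in *Xist*, had the highest values of both genes, and WT replicate 1, which was low in *Xist*, lay at the level of the miR-155KI libraries. The log2 fold change of *Stard4* between the genotypes was -0.41 in the NK1.1- pool (adjusted p = 0.337) and -0.46 in the NK1.1+ pool (adjusted p = 0.576). With the log2 ratio of Y-linked to *Xist* RNA as a covariate, the log2 fold change of *Insig1* was 0.061 in the NK1.1- pool and -0.24 in the NK1.1+ pool, that of *Stard4* 0.027 and -0.026, and that of *Fasn* in NK1.1+ cells -0.021. Without WT replicate 1, *Insig1* was lower in miR-155KI cells of both pools, by -1.0 on the log2 scale in NK1.1- cells (adjusted p = 0.00685) and by -1.20 in NK1.1+ cells (adjusted p = 0.0185), and so was *Srebf2* in NK1.1- cells (-0.45, adjusted p = 0.0405). In those fits every WT library was high in *Xist* and every miR-155KI library was low. WT replicate 1 is the only WT library low in *Xist* in either pool. Genotype and the sex-linked difference therefore cannot be told apart in the genotype comparisons of either pool. That covers *Srebf2* as well as *Insig1*, *Stard4* and *Fasn*. With the same covariate *Fasn* in NK1.1- cells was at -0.18, against -0.33 without it.

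**Figure D2:**
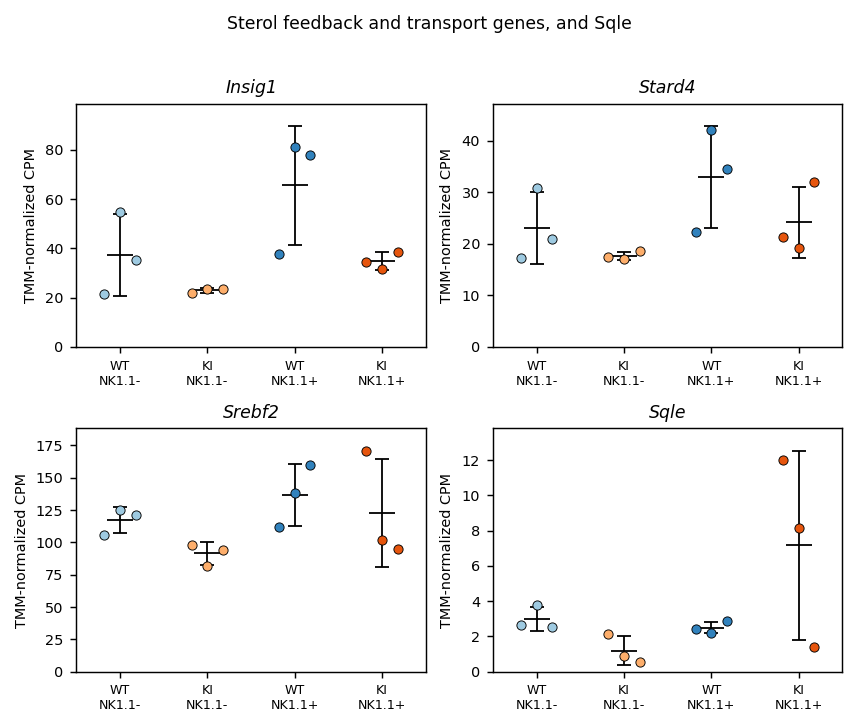
Each panel gives 1 gene and its vertical axis is TMM-normalized CPM. Points are the 3 libraries of a group, replicates 1 to 3 from left to right, and bars are the mean and SD (KI is miR-155KI). *Insig1* and *Stard4* are high in WT replicates 2 and 3 and WT replicate 1 lies near the miR-155KI points, *Srebf2* is 81.7 to 98.1 CPM in miR-155KI NK1.1- cells, and *Sqle* is spread from 1.39 to 12.0 CPM in miR-155KI NK1.1+ cells.

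The pools were compared within each genotype, in the same libraries as the genotype comparisons. In WT mice 0 of the 30 members were higher and 2 were lower in NK1.1+ than in NK1.1- cells, where 9.89% of the 13555 genes tested were higher and 10.9% were lower. The sort itself showed in the *i*NKT1 markers, all 15 of which were higher in NK1.1+ cells of either genotype. The median log2 fold change was -0.05, beside 0.01 over all genes. The pools did not overlap for 10 of the 30 members (5 higher, 5 lower), against 20.4% of all genes tested higher and 18.6% lower. *Scd2* was 253, 239 and 232 CPM in NK1.1- and 106, 108 and 107 CPM in NK1.1+ cells of WT mice, with a gap between the groups far wider than the spread within either (log2 fold change -1.20, 95% interval -1.45 to -0.96, adjusted p = 3.51e-05). *Fdps*, the farnesyl diphosphate synthase, was 35.7, 42.8 and 46.7 CPM in NK1.1- and 29.4, 33.1 and 21.8 CPM in NK1.1+ cells of WT mice, without overlap (log2 fold change -0.60, 95% interval -1.01 to -0.19, adjusted p = 0.0408). For *Fdps*, 26.7% of the exon bases are shared with a protein-coding gene model on the same strand, so that its reads may not all be its own. The call on *Fdps* was lost without WT NK1.1- replicate 2 or 3 (adjusted p = 0.104 and 0.150), without WT NK1.1+ replicate 3 (adjusted p = 0.164) and in a fit of all 12 libraries (adjusted p = 0.138).

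WT libraries of the same replicate number deviated together from their group means, and with the replicate number as a block 4 of the 30 members were higher and 4 were lower in NK1.1+ cells, where 14.7% and 15.2% of all genes tested were. The lower members were *Scd2* (-1.20, adjusted p = 1.02e-06), *Fdps* (-0.61, adjusted p = 0.0119), *Fasn* (-0.37, adjusted p = 0.0286) and *Ebp* (-0.34, adjusted p = 0.0452). Higher with the block were *Insig1* (0.80, 95% interval 0.51 to 1.1, adjusted p = 0.000409), *Elovl6*, which elongates palmitate (0.69, adjusted p = 0.0116), *Stard4* (0.48, adjusted p = 0.0265) and *Sc5d*, the sterol desaturase of a late step (0.42, adjusted p = 0.0308). *Insig1* was higher in the NK1.1+ library of each WT replicate number, from 21.7 to 37.9, from 54.7 to 81.2 and from 35.5 to 78.0 CPM. Without the block its interval was wide, from -0.28 to 1.84 around 0.78 (adjusted p = 0.277), and WT replicate 1 was the lowest WT library of both pools. *Elovl6* was 14.1, 18 and 9.93 CPM in NK1.1- and 19.7, 26.7 and 21.6 CPM in NK1.1+ cells of WT mice, and *Sc5d* 51.2, 61.1 and 46.5 against 84.7, 65.9 and 66.3 CPM. *Ebp* went the other way, from 68.0, 63.0 and 69.3 to 55.9, 55.5 and 50.2 CPM. *Srebf1* (log2 fold change -0.25, adjusted p = 0.241) and *Srebf2* (0.19, adjusted p = 0.414) passed neither fit.

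In miR-155KI mice 0 of the 29 members tested were higher and 3 were lower in NK1.1+ cells, where 7.92% of the 12942 genes tested were higher and 6.15% were lower. All 3 belong to fatty acid synthesis. *Scd2* was 306, 258 and 249 CPM in NK1.1- and 145, 163 and 103 CPM in NK1.1+ cells of miR-155KI mice (log2 fold change -0.99, 95% interval -1.37 to -0.60, adjusted p = 0.00493). *Acly* was 435, 377 and 413 CPM in NK1.1- and 276, 279 and 303 CPM in NK1.1+ cells (log2 fold change -0.51, 95% interval -0.75 to -0.28, adjusted p = 0.0109), and *Fasn* was 176, 145 and 165 against 123, 122 and 123 CPM (log2 fold change -0.40, 95% interval -0.66 to -0.14, adjusted p = 0.0480). The pools did not overlap for any of these 3 genes. That held for 6 of the 29 members (3 higher, 3 lower), against 17.5% of all genes tested higher and 17.1% lower. In WT mice *Acly* was 328, 359 and 386 CPM in NK1.1- and 301, 314 and 331 CPM in NK1.1+ cells, which overlap (log2 fold change -0.21, 95% interval -0.47 to 0.04, adjusted p = 0.230). *Scd2* was still called with any 1 library left out, *Acly* was not called without miR-155KI NK1.1- replicate 1 (adjusted p = 0.0739) or 3 (adjusted p = 0.0625), and *Fasn* was not called without any 1 of the 6 libraries (adjusted p from 0.0525 to 0.226). *Fdps*, at 36.0, 38.9 and 48.3 CPM in NK1.1- and 46.9, 29.8 and 21.7 CPM in NK1.1+ cells, overlapped (log2 fold change -0.32, adjusted p = 0.503). *Insig1* was 21.9, 23.5 and 23.4 CPM in NK1.1- and 34.7, 31.5 and 38.5 CPM in NK1.1+ cells of miR-155KI mice, without overlap (log2 fold change 0.60, 95% interval 0.18 to 1.03, adjusted p = 0.0616), and *Stard4* was also without overlap (log2 fold change 0.45, adjusted p = 0.303).

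**Figure D3:**
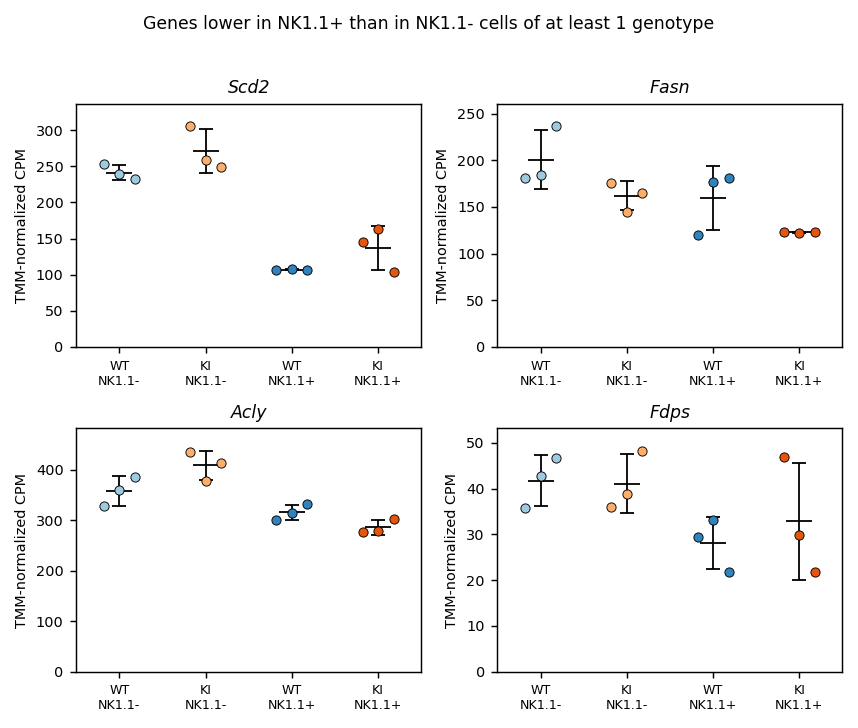
Each panel gives 1 gene and its vertical axis is TMM-normalized CPM. Points are the 3 libraries of a group and bars are the mean and SD (KI is miR-155KI). *Scd2* falls from 232 to 306 CPM in NK1.1- libraries to 103 to 163 CPM in NK1.1+ libraries of both genotypes, while *Acly* and *Fasn* are lower in NK1.1+ cells without overlap in miR-155KI mice and *Fdps* in WT mice.

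The CPM of the 6 fatty acid genes summed to 805 to 885 CPM in WT and 822 to 954 CPM in miR-155KI NK1.1- libraries, and to 571 to 660 and 552 to 591 CPM in NK1.1+ libraries, so that all NK1.1- libraries lay above all NK1.1+ libraries. *Acly*, *Scd2* and *Fasn*, with means of 358, 242 and 200 CPM in WT NK1.1- cells, made up most of this sum. A score weighted the 6 genes alike, *Scd1* with its few counts included, as the mean of log2(CPM + 1) around each gene's mean over the 12 libraries. Within each genotype the scores of the pools did not overlap. In WT mice they were 0.14 to 0.26 in NK1.1- and -0.17 to 0.11 in NK1.1+ libraries. In miR-155KI mice they were 0.016 to 0.22 and -0.50 to -0.083. Across the genotypes the pools overlapped, with 0.016 in miR-155KI NK1.1- replicate 3 and 0.11 and 0.082 in WT NK1.1+ replicates 2 and 3. In WT mice *Scd2* alone of the 6 was called without the block. With the block *Scd2* and *Fasn* were called lower and *Elovl6* higher. A change of the group as a whole was not tested. The 11 squalene and sterol genes summed to between 272 and 335 CPM and the 7 mevalonate genes to between 135 and 193 CPM over the 12 libraries, with the groups overlapping. Cell division genes also moved with the pools. The 30 cell division genes, such as *Mki67*, summed to 2960 to 4670 CPM in NK1.1- and 1390 to 2460 CPM in NK1.1+ libraries, and 29 of the 30 were lower in NK1.1+ cells of WT mice and 18 of the 30 in those of miR-155KI mice. The sums of the mevalonate and of the squalene and sterol genes did not separate the pools as the cell division genes did, and the part of cell division in the fall of *Scd2*, *Fasn* and *Acly* was not tested. In bulk RNA, fewer cells of a type and less RNA per cell cannot be told apart, and the NK1.1- pool mixes several *i*NKT subsets.

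**Figure D4:**
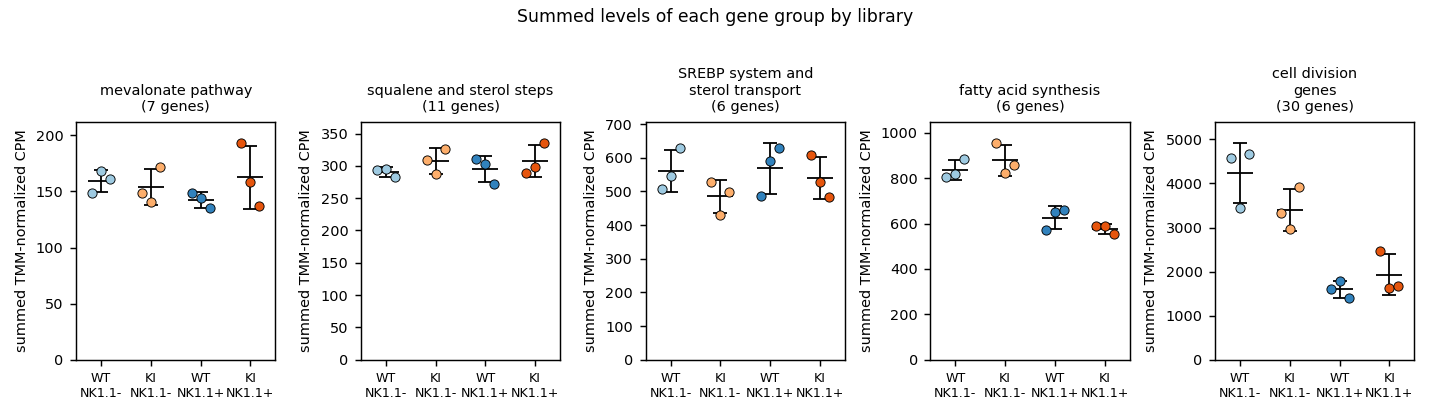
Each panel sums the TMM-normalized CPM of 1 gene group in each library, on an axis that starts at 0. Points are the 3 libraries of a group and bars are the mean and SD (KI is miR-155KI). The fatty acid genes, whose sum is mostly *Acly*, *Scd2* and *Fasn*, are at 805 to 954 CPM in NK1.1- and 552 to 660 CPM in NK1.1+ libraries, while the sterol groups overlap and the cell division genes fall from 2960 to 4670 to 1390 to 2460 CPM.

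Whether miR-155KI and WT differed by another amount in NK1.1+ than in NK1.1- cells was asked with an interaction term in a fit of all 12 libraries. None of the 30 members (0) passed by edgeR's test or by DESeq2, where 0.0278% of 14401 genes passed (4 genes). An unadjusted p under 0.05 was seen for 3 members, 2 of them above 0 and 1 below, and for 1167 of the 14401 genes. The first by size was *Sqle*, at 2.65, 3.78 and 2.51 CPM in WT and 2.11, 0.903 and 0.535 CPM in miR-155KI NK1.1- cells, and 2.43, 2.22 and 2.85 CPM in WT and 12.0, 8.13 and 1.39 CPM in miR-155KI NK1.1+ cells (interaction 2.84 on the log2 scale, 95% interval 0.87 to 4.81, adjusted p = 0.384). The high values came from miR-155KI NK1.1+ replicates 1 and 2, with up to 181 counts, and replicate 3 had 22 counts and lay below the WT libraries. Within miR-155KI mice the pools differed in *Sqle* by 2.58 (95% interval 0.69 to 4.47, adjusted p = 0.0731), and within NK1.1+ cells the genotypes differed by 1.5 (adjusted p = 0.436), neither past the threshold, while in WT mice the pools differed by -0.29 (adjusted p = 0.632). Replicate 2 was also the library with 1500 CPM of macrophage and dendritic cell markers, and replicate 1 the one with 618 CPM of double-positive thymocyte markers, and the part of these cells in the *Sqle* values was not tested. The others were *Mvd*, above 0, and *Acly*, whose log2 fold change between the genotypes was 0.17 in the NK1.1- pool and -0.16 in the NK1.1+ pool (interaction -0.33, 95% interval -0.65 to -0.01, adjusted p = 0.601). *Scd2* (0.19, 95% interval -0.25 to 0.62, adjusted p = 0.897) and *Insig1* (-0.21, 95% interval -1.11 to 0.69, adjusted p = 0.951) had intervals on both sides of 0.

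**Figure D5:**
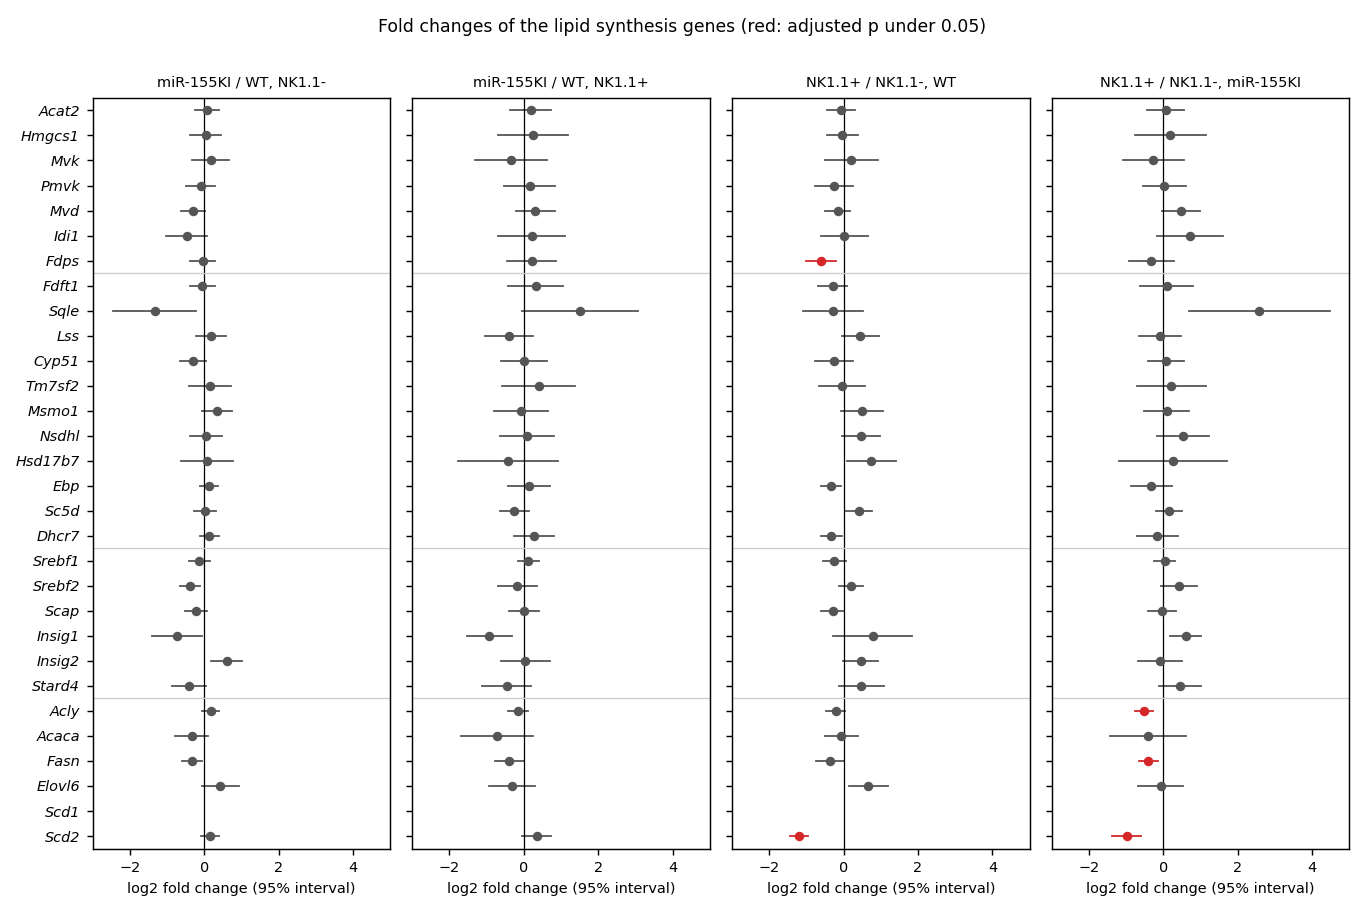
Rows are the genes in pathway order, divided by grey lines into the mevalonate, squalene and sterol, SREBP and fatty acid groups, and each panel is 1 comparison. Points are log2 fold changes, bars their 95% intervals, and red marks an adjusted p under 0.05 (*Scd1*, with 1 to 27 counts in a library, is not drawn). The intervals of the genotype panels hold no red point, and the pool panels hold 2 in WT (*Scd2* and *Fdps*) and 3 in miR-155KI mice (*Scd2*, *Acly* and *Fasn*).

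The neighbouring steps of lipid handling were read from 42 further genes, of which 41 were in the table. Between the genotypes, 0 were higher and 1 was lower of 32 tested in NK1.1- cells (3.12%, beside 3.44% of all genes), and 0 of 33 passed in NK1.1+ cells. The gene that passed was *Lpin1*, a phosphatidate phosphatase, at 28.3, 48.1 and 43.6 CPM in WT and 22.5, 21.4 and 19.3 CPM in miR-155KI NK1.1- cells (log2 fold change -0.95, adjusted p = 0.0195), with WT replicate 1 the lowest of the WT libraries. The call on *Lpin1* was lost without WT NK1.1- replicate 2 or 3 or miR-155KI NK1.1- replicate 1 or 3 (adjusted p from 0.0662 to 0.110), and with the covariate of sex-linked RNA its log2 fold change was -0.47 (adjusted p = 0.484). The *Lpin1* call was also lost in the fit of all 12 libraries (adjusted p = 0.0769). Between the pools, 4 were higher and 1 was lower of 34 tested in WT mice, and 2 were higher and 0 lower of 31 in miR-155KI mice. Over all genes tested the shares were 9.89% higher and 10.9% lower in WT and 7.92% higher and 6.15% lower in miR-155KI mice, so that the shares of higher genes lay near the background. *Elovl5*, an elongase of polyunsaturated fatty acids, was 57.9, 70.0 and 66.3 CPM in NK1.1- and 115, 138 and 148 CPM in NK1.1+ cells of WT mice (log2 fold change 1.01, adjusted p = 0.000420), and was higher in NK1.1+ cells of miR-155KI mice too (0.78, adjusted p = 0.00864). *Mylip*, a sterol-induced ubiquitin ligase, was higher in NK1.1+ cells by 0.79 in WT (adjusted p = 0.00154) and 0.80 in miR-155KI mice (adjusted p = 0.0142). *Abcg1*, a cholesterol exporter (0.47, adjusted p = 0.0144), and *Acss2*, which makes acetyl-CoA from acetate (0.53, adjusted p = 0.0224), were higher and *Tmem97*, a sterol-regulated membrane protein (-0.97, adjusted p = 0.00788), was lower in NK1.1+ cells of WT mice. In miR-155KI mice the calls on *Elovl5* and *Mylip* were lost without miR-155KI NK1.1- replicate 1 (adjusted p = 0.0566 and 0.0797), and that on *Mylip* also without replicate 3 (adjusted p = 0.0821). In WT mice the call on *Abcg1* was lost without WT NK1.1- replicate 1 or WT NK1.1+ replicate 3 (adjusted p = 0.0820 and 0.0775), and that on *Acss2* without either of these or WT NK1.1- replicate 2 (adjusted p from 0.0949 to 0.109). The *Acss2* call was also lost in the fit of all 12 libraries (adjusted p = 0.0914) and with limma on the deposited CPM (adjusted p = 0.0507 and 0.0534). In WT mice the desaturase *Scd2* was lower and the elongase *Elovl5* higher in NK1.1+ than in NK1.1- cells.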

How the data were processed

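Gene expression in *i*NKT cells sorted from the thymus was read from 12 RNA-seq libraries. The authors deposited raw counts per gene and a signal table in CPM, each value a count times 1 factor per library. The submitters' processing notes name bcl2fastq 2.17.1.14 and the builds GRCm38 and mm10. The aligner, the counting program and its strand setting are not given in the sources used here, so genes that overlap others are uncertain. The labels name a SMART-Seq kit and the methods a TruSeq kit. The methods speak of pooled replicates, while the tables hold 3 libraries per group. No source ties libraries to mice, so p-values measure the spread between libraries, which may be technical in part. WT replicate 1 differed from WT replicates 2 and 3 in sex-linked RNA, so it was not a repeat of the same RNA sample.

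Counts were tested with edgeR 4.0.16 in R 4.3.3 (TMM, default low-count filter, robust quasi-likelihood test), with Benjamini-Hochberg adjustment across every gene in the test, at a threshold of 0.05, and 95% intervals from the same fit. Each comparison used its own 6 libraries and the interaction used all 12. Alternatives used DESeq2 1.42.0, limma 3.58.1 and those in the closing section. Replicate numbers pair the WT pools (correlations of deviations 0.374, 0.267 and 0.161). Exon lengths and 3′ UTRs are from GENCODE M21 (GRCm38).

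The members and lists were chosen with earlier results of these data known. Members past the threshold and 8 set members are given library by library, and of the other pathway genes up to 8 past the threshold are named. *Mir155hg*, sex-linked and marker genes serve as checks of the libraries. *Stard4*, *Insig2*, *Elovl6*, *Sc5d* and *Ebp* were added after their values were seen. The test was checked on simulated data. Some sequence matches in 3′ UTRs are not reported here.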

Additional observations from a re-analysis of the deposited data

How the results depend on the processing

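The counts of members past the threshold were recomputed with DESeq2, limma-voom, DESeq2 size factors in edgeR, other low-count filters, no robust option, limma on the deposited CPM, the replicate block, all 12 libraries in one fit, a covariate of Y-linked to *Xist* RNA, and each library left out. For the interaction the count was 0 under all of them. Between the genotypes it was 1 for either pool with no filter on low counts (*Insig1* both times), 0 to 2 and 0 to 1 with 1 library left out (highest without WT replicate 1), and 0 otherwise. Between the WT pools it was 4 with DESeq2, 4 with no filter, 8 with the replicate block, 1 in the fit of all 12 libraries, 10 with the covariate (5 higher, 5 lower) and 1 to 4 with 1 library left out. Between the miR-155KI pools it was 5 with DESeq2 and 1 to 4 with 1 library left out. *Scd2* passed in both pool comparisons under every setting.

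With the covariate, *Insig1* and *Stard4* turned to 0.061 and 0.027 in the NK1.1- genotype comparison, and against the single WT replicate 1 to 0.083 and 0.037, while in NK1.1+ cells *Stard4* turned to 0.11 and *Fasn* to 0.028. That control was chosen after its levels were seen and is 1 library, so these values are a description. With 1 library left out, *Hmgcs1* in the NK1.1- genotype comparison ranged from -0.095 to 0.23 and the interaction of *Insig1* from -0.57 to 0.059. *Sqle* between the miR-155KI pools passed in 5 of 18 settings. Outside the WT pools not every pair's correlation passed 0.1, and replicate numbers were not taken as pairs. The libraries of the miR-155KI pools also correlated best with their own number (3 of 3). So did those of the genotypes in NK1.1- cells (3 of 3, correlations 0.0953, 0.204 and 0.0941), but not in NK1.1+ cells (0 of 3). Outside the WT pools the replicate block gave 0 members between the genotypes in either pool, 0 in the interaction and 3 between the miR-155KI pools (*Scd2*, *Acly* and *Sqle*, adjusted p = 0.0396 for *Sqle*, but not *Fasn*, adjusted p = 0.0655). Over all genes the count ranged over the settings from 113 to 1048 between the genotypes in NK1.1- cells (457 as reported), from 1 to 316 in NK1.1+ cells (3), from 1832 to 4266 between the WT pools (2819), from 788 to 2627 between the miR-155KI pools (1821) and from 0 to 162 in the interaction (4). The causes of these differences were not tested. *Scd1* and *Sqle* are limited by depth, with 1 to 27 and 10 to 181 counts in a library.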
